A study of Nannochloropsis oceanica with 6 samples.

Results

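A pair of neighbouring genes of Nannochloropsis oceanica CCMP1779, a unicellular marine stramenopile alga, make up 2 of the 10635 gene models with expression values in the Nanoce1779_2 annotation. Protein identifier 552717's entry is called the GST-domain gene here (GST stands for glutathione S-transferase), and protein identifier 552718's entry is called the thioredoxin-fold gene. They were taken by identifier but had been chosen by their FPKM and TPM in these same 6 libraries, so their levels are given as a description and carry no test. Polyadenylated RNA was sequenced from 3 groups of 2 libraries. All cells had grown in 12 h light and 12 h dark at 22 °C under 30 µmol s−1 m−2. They were moved to the dark at zeitgeber time 12 (12 h after lights on) and stood there for 36 h. The dark group received no pulse, the blue group 5 min of blue light and the red group 5 min of red light, both pulses at 20 µmol s−1 m−2, and all groups were harvested after 15 min more in the dark. The strain and the growth before the pulse are the same in all groups. Whether the numbered libraries of a group were separate cultures is not stated in the labels, and spreads and p-values therefore describe these libraries and may be technical.

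Glutathione transferases join the tripeptide glutathione to reactive or electrophilic compounds, which marks these for transport or breakdown. Their N-terminal domain has the fold of thioredoxin, a small protein that reduces disulfide bonds with a pair of cysteines, and automated annotation therefore often gives both names to related proteins. In photosynthetic cells both systems are known for handling peroxides and disulfides that arise when light drives electron transport.

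The annotation of the pair leans to glutathione transferase for both genes. The GST-domain gene is listed as a hypothetical protein with the InterPro entry for the N-terminal domain of glutathione S-transferase and the GO term cell redox homeostasis. The thioredoxin-fold gene has the product name thioredoxin-like fold, but its KOG entry is glutathione S-transferase and its GO term is glutathione transferase activity. The name of the thioredoxin-fold gene thus rests on its product name alone, and neither model carries a thioredoxin entry from KOG.

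Both genes lie on scaffold 6 and are read away from each other. The GST-domain gene spans 172600 to 174322 (1723 bases) on the minus strand, and the thioredoxin-fold gene spans 174336 to 175887 (1552 bases) on the plus strand. Their 5′ ends face each other across 13 bases. Neither model overlaps another one, and the authors' table gives each its own locus. The model ends are those of the annotation, and transcript starts were not measured.

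The GST-domain gene was low in the dark and high after blue light. It stood at 6.77 and 7.27 FPKM (fragments per kilobase of transcript, scaled to the fragments of the library) in the dark libraries, at 213 and 253 FPKM in the blue libraries and at 17.4 and 21.4 FPKM in the red libraries. Each blue library was far above each red one, each red one was above each dark one, and no groups overlapped. The group means were 7.02 ± 0.35 FPKM in dark, 233 ± 28.3 FPKM in blue and 19.4 ± 2.80 FPKM in red (SD, n = 2). The mean level after blue light was 33.2 times that in the dark, with single libraries between 29.3 and 37.4 times. After red light it was 2.77 times the dark level, with single libraries between 2.40 and 3.16 times. In the dark libraries 33.6% and 34.6% of all models were listed below this gene, in the blue libraries 94.2% and 95.0%, and in the red libraries 47.6% and 52.7%. The gene thus moved from the lower part of the expressed range to the upper end of it after the blue pulse.

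The thioredoxin-fold gene showed the same order of groups at a lower level. The dark libraries had 1.86 and 1.81 FPKM, the blue ones 30.0 and 41.9 FPKM and the red ones 2.84 and 3.40 FPKM. Again no library of one group overlapped with those of another, although the red and dark libraries lay close to each other. The group means were 1.84 ± 0.034 FPKM in dark, 35.9 ± 8.39 FPKM in blue and 3.12 ± 0.40 FPKM in red (SD, n = 2). The blue mean was 19.6 times the dark mean, with single libraries between 16.1 and 23.1 times. The red mean was 1.70 times the dark mean, with single libraries between 1.52 and 1.87 times. Of all models, 18.8% to 19.0% were listed below this gene in the dark libraries, 59.2% and 66.9% after blue light and 22.1% and 23.9% after red light. Levels in FPKM are relative to the RNA of the whole library, so more transcript per cell and less of other transcripts cannot be told apart.

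**Figure D1:**
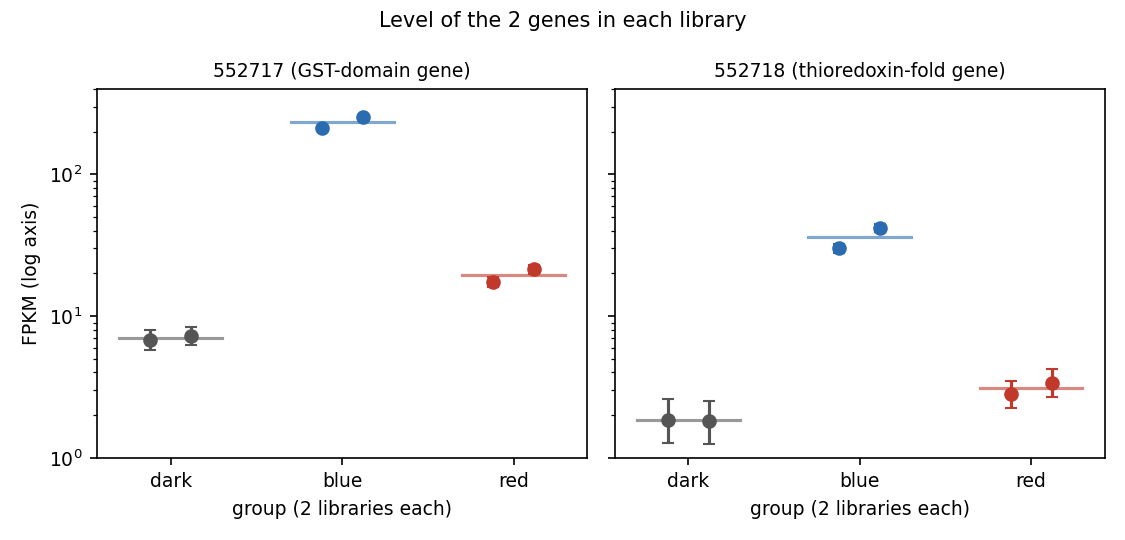
FPKM (log axis) of the GST-domain gene and the thioredoxin-fold gene in the 2 libraries of each group; points are libraries, vertical bars are 95% Poisson intervals of the fragment counts, and horizontal lines are group means. In both genes the blue libraries lie far above the others, at 213 and 253 FPKM and at 30.0 and 41.9 FPKM. The red libraries lie above the dark ones, and only slightly so in the thioredoxin-fold gene.

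An order of blue above red above dark without overlap was common in the data. Over the 9087 models whose mean reached 1 FPKM, both blue libraries lay above both dark libraries in 46.0%, both red above both dark in 44.8%, and both blue above both red in 39.5%. The whole order was met by 2024 models, or 22.3%. The order of groups that both genes show was thus frequent, whereas rises of their size were less common. On the scale of log2(FPKM + 1), where low levels give smaller changes than the plain ratio, the change after blue light was 4.86 for the GST-domain gene and 3.68 for the thioredoxin-fold gene. These were the ranks 24 and 66 from the largest rise among 9087 models, whose median was 0.045. A log2 change of at least 3 after blue light was found in 121 models, or 1.33%.

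After red light both genes changed less than after blue light, and their ranks lay further apart. The log2(FPKM + 1) change was 1.34 for the GST-domain gene, rank 248, and 0.53 for the thioredoxin-fold gene, rank 1877, against a median of 0.041 over all models. Between the pulses the difference was 3.52 for the GST-domain gene and 3.15 for the thioredoxin-fold gene, ranks 35 and 48. As plain FPKM the blue mean was 12.0 times the red mean for the GST-domain gene and 11.5 times for the thioredoxin-fold gene. The blue level thus exceeded the red level by nearly the same factor in both genes. The 3 comparisons share libraries, so these values are not independent of each other. In the authors' deposited table the log2 changes of blue over dark are 5.05 for the GST-domain gene and 4.29 for the thioredoxin-fold gene, and those of red over dark are 1.47 and 0.76.

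TPM (transcript shares scaled to a fixed library sum), the other deposited unit, gave the same order with larger rises. The GST-domain gene stood at 8.83 and 9.46 TPM in dark, 341 and 382 TPM in blue and 29.6 and 34.7 TPM in red libraries. The thioredoxin-fold gene stood at 2.43 and 2.36 TPM in dark, 48.0 and 63.2 TPM in blue and 4.82 and 5.51 TPM in red libraries. The ratio of blue to dark means was then 39.6 and 23.2 for the 2 genes, and the ratio of red to dark means 3.52 and 2.16. The units differ because 1 FPKM equals 1.30 TPM in the dark libraries, 1.60 and 1.51 TPM in blue and 1.70 and 1.62 TPM in red libraries. The FPKM columns sum to 767192.8 and 767746.9 in dark but only to between 588091.6 and 662228.8 in the pulsed libraries.

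The numbers of sequenced fragments behind these levels could be worked out from the deposited values. For both genes all 6 FPKM values were whole multiples of a common step once the libraries' relative depth was taken out, with the largest departure from a whole number 0.0163 fragments. The GST-domain gene came to 154 and 180 fragments in the dark libraries, 8063 and 6888 after blue light and 670 and 646 after red light. The thioredoxin-fold gene came to 33 and 35 fragments in the dark libraries, 885 and 888 after blue light and 85 and 80 after red light. The dark level of the thioredoxin-fold gene therefore rested on few fragments, with 95% Poisson intervals of 1.28 to 2.61 and 1.26 to 2.52 FPKM, whereas its red libraries had intervals of 2.27 to 3.51 and 2.69 to 4.23 FPKM. The interval of the first red library overlapped those of both dark libraries, and that of the second red library overlapped neither. For the GST-domain gene the intervals were 5.74 to 7.93 and 6.24 to 8.41 FPKM in dark and 16.1 to 18.8 and 19.8 to 23.1 FPKM in red libraries, without overlap. In blue the intervals of the replicates, 209 to 218 and 247 to 259 FPKM, lay apart from each other. The blue libraries thus differed by more than counting error in the GST-domain gene, and likewise in the thioredoxin-fold gene, where the intervals were 28.1 to 32.1 and 39.2 to 44.7 FPKM. These intervals cover counting error only.

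The ratio of the 2 genes within a library does not depend on how libraries are scaled. FPKM of the GST-domain gene was 3.64 and 4.01 times that of the thioredoxin-fold gene in the dark libraries, 7.10 and 6.05 times in blue and 6.15 and 6.30 times in red libraries. The dark ratios lay below all 4 ratios of pulsed libraries, and the blue and red ratios overlapped. Averaged over libraries the ratio was 3.82 ± 0.26 without a pulse, 6.58 ± 0.75 after blue light and 6.22 ± 0.11 after red light (SD, n = 2). Counting error was wide in the dark, with 95% exact binomial (Clopper-Pearson) intervals of 2.49 to 5.47 and 2.78 to 5.94. The intervals of the blue libraries were 6.63 to 7.62 and 5.64 to 6.49, and those of the red libraries were 4.90 to 7.80 and 4.99 to 8.05. The intervals of both red libraries and of the second blue library overlapped that of at least 1 dark library.

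**Figure D2:**
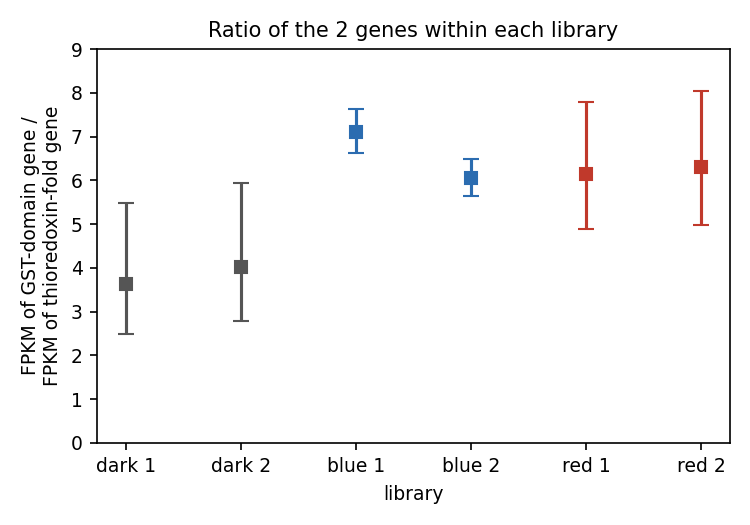
Ratio of the FPKM of the GST-domain gene to that of the thioredoxin-fold gene within each of the 6 libraries; vertical bars are 95% exact binomial intervals of the fragment counts. The dark libraries sit at 3.64 and 4.01 and the pulsed libraries between 6.05 and 7.10, with wide intervals in dark and red.

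The genes around the pair did not share the size of its rise. The 5 models before and the 5 after the pair on scaffold 6 were taken whatever their values, and they were tested with limma on log2(FPKM + 1) with Benjamini-Hochberg adjustment over all 9087 models. After blue light 5 of these 10 rose and 1 fell at an adjusted p under 0.05, where 39.9% of all tested models rose and 36.2% fell. Their log2 changes reached from −0.28 to 0.84, with a median of 0.27. After red light 3 of 10 rose and 1 fell, against 33.7% and 29.5% of all tested models, with changes from −0.42 to 0.76. In the direct comparison of the pulses 3 were higher in blue and 1 was lower, against 27.0% and 23.7%. The flanking counts after red light came to 7 called models with TPM and to 2 without red replicate 1.

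The closest neighbours make the contrast plain. Endonuclease V (539183), an enzyme that cuts DNA or RNA at deaminated bases, ends 88 bases beyond the thioredoxin-fold gene, is read towards it and overlaps the next model. It stood at 3.88 and 4.36 FPKM in dark, 5.60 and 4.87 FPKM in blue and 7.92 and 6.30 FPKM in red libraries. Its log2 change was 0.28 after blue light (SE 0.14, limma adjusted p = 0.0893; called with TPM at 0.519, adjusted p = 0.0189) and 0.66 after red light (SE 0.14, adjusted p = 0.0026). On the other side, 558 bases beyond the 3′ end of the GST-domain gene, a model with a PHD finger (669367), a zinc-binding domain of chromatin proteins, overlaps the gene of the small RNA polymerase subunit RPB10 (581931). The PHD finger model stood at 2.86 and 2.76 FPKM in dark and 4.57 and 4.09 FPKM in blue libraries, a log2 change of 0.48 (adjusted p = 0.00533) that was not called with median centring (0.218). The RPB10 model stood at 3.26 FPKM in both dark libraries and 6.14 and 4.83 FPKM in blue, a log2 change of 0.60 (adjusted p = 0.0162) that was not called without blue replicate 1 (0.452), without the filter on low values or with median centring (0.334).

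The remaining flanking genes behaved in various ways. A poly(A) polymerase domain protein (669364), of the enzymes that add adenosine tails to RNA, fell from 66.5 and 61.5 FPKM in dark to 55.1 and 50.0 FPKM in blue (log2 change −0.28, adjusted p = 0.0162), a call lost with TPM (−0.0303), without dark replicate 1 and without blue replicate 2. The beta subunit of translation initiation factor 2 (581930) went from 64.1 and 63.8 FPKM to 75.3 and 78.1 FPKM in blue (log2 change 0.26, adjusted p = 0.0122), a change of −0.00618 with median centring, whose call was lost without either dark replicate. Models 581949 and 581950, which overlap each other, rose by 0.84 and 0.63 on the log2 scale after blue light (adjusted p = 0.00108 and 0.000924). Model 581950 has a domain of the endonuclease, exonuclease and phosphatase family. An auxin efflux carrier domain protein (539185), a proline oxidase (581917) and the undescribed model 628822 had log2 changes of 0.15, −0.18 and −0.073 after blue light and did not pass (adjusted p = 0.398, 0.123 and 0.595). With median centring 581917 and 628822 were called, at −0.441 and −0.338 (adjusted p = 0.00152 and 0.0313), and 581917 also without blue replicate 2 (−0.276, adjusted p = 0.0245).

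**Figure D3:**
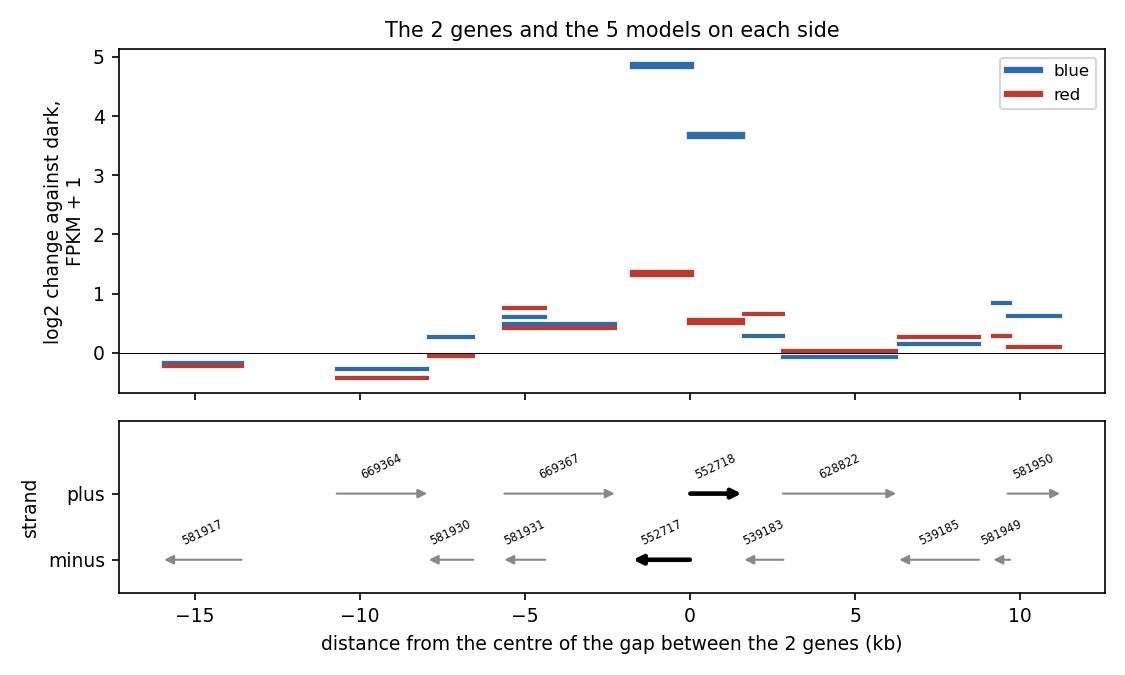
Upper panel, log2 change against dark on the FPKM + 1 scale after blue and red light for the 2 genes and the 5 models on each side, drawn over each model's span; lower panel, the models by strand, with distance in kb from the centre of the gap between the 2 genes. The GST-domain gene and the thioredoxin-fold gene stand at 4.86 and 3.68 after blue light, and the 10 flanking models lie between −0.28 and 0.84.

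Divergent neighbours, the arrangement of the pair, are frequent in this genome, but so short a gap is not. Apart from the pair itself, 2112 divergent pairs without overlap had both models tested, with a median distance of 482 bases, and 60 of them lay at most 13 bases apart. In 484 of the 2112 pairs (22.9%) both models rose after blue light, in 387 (18.3%) both fell, and in 391 (18.5%) they went opposite ways. In the same order the shares were 18.7%, 15.9% and 25.5% over convergent pairs and 21.0%, 18.1% and 22.0% over pairs on the same strand. Among the 237 divergent pairs at most 100 bases apart, a distance chosen after seeing the data, both rose in 62 (26.2%), both fell in 44 (18.6%) and 29 (12.2%) went opposite ways. At that distance the shares were 19.8%, 13.65% and 24.5% over convergent pairs and 19.6%, 22.4% and 20.5% over pairs on the same strand. Over the 2112 pairs Pearson's r between the 2 blue changes was 0.33, and over the 237 close ones it was 0.46. It was 0.23 over 2380 pairs on the same strand and 0.40 over the 317 close ones of these, and 0.09 over 1884 convergent pairs and 0.05 over the 652 close ones. These are descriptions across genes, which share libraries and are not replicates.

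Large rises of both partners were few. In 3 other divergent pairs of the 2112 both models changed by at least 3 on the log2 scale after blue light, while at least 1 model did so in 48 pairs. The 3 pairs were nitrate reductase (590448) with a transporter of the major facilitator family (555711), a cyclin B-like protein (198387) with the hypothetical protein 198434, and the undescribed models 251483 and 605099. Their gaps were 881, 662 and 881 bases, against 13 bases for the GST-domain gene and the thioredoxin-fold gene. None of the other divergent pairs at most 100 bases apart had such a rise in both models, and 2 of them had it in 1 model. The pair was chosen by its values, so its own place above this cut is given by that choice and is no support. With a pseudocount of 5 the thioredoxin-fold gene, at 2.57, lies below the cut. Such joint rises were found in other arrangements too, in 4 of 2380 pairs on the same strand and in 2 of 1884 convergent pairs, 1 of each at most 100 bases apart.

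Across the 6 libraries the 2 genes followed each other closely in shape, though other genes were closer to each of them in size. Pearson's r between their log2(FPKM + 1) values was 0.99 (n = 6), a value that mostly reflects the distance between blue and the other groups. Likeness was measured as the root mean square difference of log2(FPKM + 1) after each model was centred on its own mean over the 6 libraries. It was 0.50 between the genes, so that the thioredoxin-fold gene was in place 27 among the models most like the GST-domain gene, and the GST-domain gene in place 86 among those most like the thioredoxin-fold gene.

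The model most like the GST-domain gene was 106091, annotated as a pentafunctional AROM protein, an enzyme of the shikimate pathway to aromatic amino acids, with a root mean square difference of 0.12. It stood at 9.56 and 10.0 FPKM in dark, 341 and 374 FPKM in blue and 22.4 and 26.8 FPKM in red libraries. It was followed by a delta-6 fatty acid desaturase (593992, 0.14), which adds double bonds to fatty acids, by an FKBP-type peptidyl-prolyl isomerase (605570, 0.17), a class of folding helpers, by a protein with a cytochrome b5-like domain (593993, 0.19) and by the undescribed model 23029 (0.19). Model 593993 has the same KOG entry, delta-6 desaturase, as 593992. The 2 models abut on the minus strand of scaffold 14, where 593992 ends at 680518 and 593993 starts at 680519. Whether they are parts of 1 gene was not tested, so they may not be separate cases. Model 593992 stood at 24.2 and 23.2 FPKM in dark, 581 and 701 FPKM in blue and 56.2 and 52.8 FPKM in red libraries, a higher level with the same pattern.

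The model most like the thioredoxin-fold gene was a serine/threonine protein kinase (552672), with a root mean square difference of 0.084. It stood at 43.1 and 47.0 FPKM in dark, 562 and 721 FPKM in blue and 69.9 and 74.9 FPKM in red libraries. Stearoyl-CoA desaturase (593563, 0.14), the undescribed overlapping model 629277 (0.16), a glucose or sorbosone dehydrogenase domain protein (585081, 0.16) and a model related to initiation factor 2B (550512, overlapping, 0.16) came next. All 10 models named for likeness had Pearson's r of at least 0.996 with their gene over the 6 libraries. No model was among the 5 nearest of both genes.

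**Figure D4:**
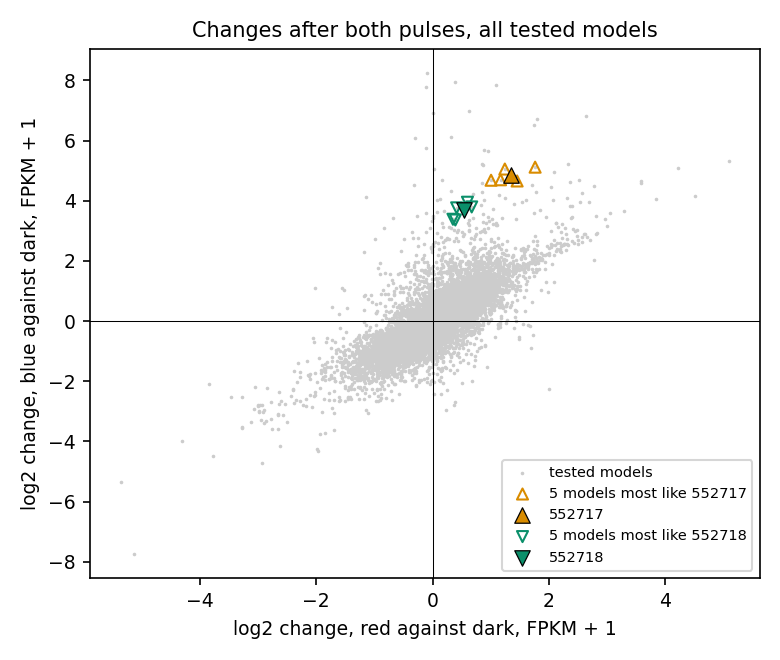
Log2 change on the FPKM + 1 scale after blue light against that after red light for the 9087 tested models (grey), with the 2 genes as filled and the 5 models most like each as open triangles. The GST-domain gene lies at 4.86 and 1.34 and the thioredoxin-fold gene at 3.68 and 0.53, both above the main cloud.

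On the log2(FPKM + 1) scale the rise of the pair after blue light was above that of the other glutathione transferases. Word patterns on the descriptions matched 21 further models of this family, of which 17 passed the filter on low values. After blue light 7 of the 17 rose and 7 fell (limma, adjusted p under 0.05), or 41.2% each against 39.9% and 36.2% of all tested models, with a median log2 change of 0.15 and a range from −2.32 to 3.44. The upper end belongs to model 588610, which is listed near 0 in dark and red and passed the filter only through its blue libraries. Its place among the 7 that rose is therefore tied to the filter. With a filter at a mean of 5 FPKM it drops out, and the highest change of the list is 1.90, for 578931. The change of 588610 also depends on the pseudocount. With a pseudocount of 0.1 the order turned, with 6.63 for model 588610 against 5.03 and 4.20 for the pair. After red light 6 rose and 7 fell (35.3% and 41.2%, against 33.7% and 29.5% of all), with a range from −1.69 to 1.24. With TPM the counts were 10 and 6 after blue and 8 and 5 after red light. Calls over all models also moved with TPM, to 4551 rises and 2475 falls after blue and 4978 and 1463 after red light. The TPM counts of the lists below are to be read beside these. The TPM fit kept models with a mean of at least 1 TPM, a set other than the 9087, so no shares are given for it. The changes of 4.86 and 3.68 for the GST-domain gene and the thioredoxin-fold gene after blue light were above the range of the list with FPKM. After red light the GST-domain gene at 1.34 was above that range and the thioredoxin-fold gene at 0.53 within it. The family shares sequence, and sharing of reads between its members was not tested. The list also took proteins that only contain such a domain, as well as 604854, a histidine triad protein by its other entries.

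Single family members moved in both directions. Model 588610, which overlaps another model, was listed at 1.87e-06 and 1.2e-06 FPKM in dark, at 6.97 and 13.8 FPKM in blue and at 2.64e-06 and 4.3e-06 FPKM in red libraries. Model 578931 (overlapping) rose from 20.0 and 23.4 FPKM in dark to 78.9 and 88.2 FPKM in blue (log2 change 1.90, adjusted p = 4.94e-07). The gamma subunit of elongation factor 1B (600069), a translation factor with a transferase domain, rose from 47.6 and 47.0 FPKM to 142 and 162 FPKM in blue and to 103 and 124 FPKM in red libraries (log2 changes 1.66 and 1.24, adjusted p = 9.18e-07 and 1.42e-05). It was the largest rise of the list after red light. The largest fall after both pulses was that of 579235, a membrane protein of the MAPEG family, from 1940 and 1968 FPKM in dark to 359 and 423 FPKM in blue and 626 and 582 FPKM in red libraries (log2 changes −2.32 and −1.69, adjusted p = 1.02e-07 and 2.2e-06). Models 588008 and 587809 (the latter overlapping) fell by 1.88 and 1.60 on the log2 scale after blue light (adjusted p = 9.18e-06 and 8.7e-07).

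The place of the pair within its family changed accordingly. Over the 23 family models including the pair, the GST-domain gene was in place 16 by FPKM in both dark libraries, in place 2 in both blue libraries and in place 14 in both red libraries. Its part of the summed FPKM of the family was 0.20% and 0.21% in the dark libraries, 13.1% and 13.6% after blue light and 1.05% and 1.29% after red light. The thioredoxin-fold gene was in place 18 in dark and red and in places 14 and 11 in blue libraries, with 0.054% and 0.052% of the sum without a pulse, 1.85% and 2.24% after blue light and 0.17% and 0.21% after red light. These parts do not depend on the scaling between libraries. The sum itself was 3427 and 3485 FPKM in dark, 1624 and 1868 FPKM in blue and 1655 and 1654 FPKM in red libraries, and it fell mainly through 579235.

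Genes of glutathione synthesis and use changed in both directions. Of 32 tested models of glutathione synthesis and use, 9 rose and 12 fell after blue light (28.1% and 37.5%, against 39.9% and 36.2% of all tested models). After red light 7 rose and 10 fell (21.9% and 31.2%, against 33.7% and 29.5% of all). The list had medians of 0.12 and −0.033. With TPM it gave 17 rises and 9 falls after blue and 17 and 5 after red light, where calls over all models also shifted to rises. A glutathione peroxidase (586297, overlapping), which reduces peroxides with glutathione, rose from 40.3 and 41.3 FPKM in dark to 133 and 169 FPKM in blue (log2 change 1.86, adjusted p = 5.7e-07). A glyoxalase-like protein (532318) fell from 1395 and 1369 FPKM to 221 and 216 FPKM (log2 change −2.66, adjusted p = 1.36e-08). After red light a glutaredoxin (581154), a small disulfide reductase that uses glutathione, rose most (log2 change 1.25, adjusted p = 2.83e-05). Model 671852 fell most (−1.24, adjusted p = 2.04e-06). Its KOG entry is 4-hydroxyphenylpyruvate dioxygenase, beside an ABC transporter entry. It and a second such dioxygenase (593763) matched only by the family name they share with glyoxalases, so the list is wider than its title.

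Of 42 tested thioredoxins and thioredoxin-like proteins, 10 rose and 21 fell after blue light (23.8% and 50.0%, against 39.9% and 36.2% of all tested models). After red light 9 rose and 18 fell (21.4% and 42.9%, against 33.7% and 29.5% of all). The medians were −0.25 and −0.21, and with TPM 15 rose and 15 fell after blue and 19 rose and 9 fell after red light. The highest change in this list after blue light was 1.41, for a thioredoxin (584048, overlapping) that rose from 81.0 and 84.3 FPKM to 203 and 240 FPKM (adjusted p = 1.2e-06). The change of the thioredoxin-fold gene, which shares the product name of 584048 and some others of the list, was 3.68. Models of that product name also stand in the other lists. There they changed by −1.14 (573084) to 2.73 (the peroxiredoxin 579988) after blue light. The lowest change in the thioredoxin list was −1.74, for 630406, a hypothetical protein with a thioredoxin-like fold (adjusted p = 2.34e-06). After red light the thioredoxin domain model 578381 rose most (0.83, adjusted p = 0.000188), and 625240, which joins a thioredoxin domain to a ubiquitin regulatory protein, fell most (−1.59, adjusted p = 1.25e-06). The list also took models that only bear the word in an entry, such as the arrestin-like model 592624 and the phosducin-like model 601282.

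Of 17 peroxiredoxins, thioredoxin reductases and methionine sulfoxide reductases, which use or feed the thioredoxin system, 7 rose and 7 fell after blue light (41.2% each, against 39.9% and 36.2% of all tested models). After red light 4 rose and 9 fell (23.5% and 52.9%, against 33.7% and 29.5% of all). With TPM 8 rose and 5 fell after blue light, and 8 rose and 6 fell after red light. A peroxiredoxin of the AhpC and TSA type (579988) rose from 26.7 and 28.6 FPKM in dark to 175 and 205 FPKM in blue and fell to 11.6 and 15.5 FPKM in red libraries (log2 changes 2.73 and −0.99, adjusted p = 1.81e-07 and 0.000197), and the pulses differed (adjusted p = 8.82e-08). The largest fall after both pulses was that of a methionine sulfoxide reductase (673373, overlapping; −1.41 and −1.13, adjusted p = 1.88e-06 and 1.85e-05), and the largest rise after red light that of a thioredoxin reductase-like model (595513, overlapping; 0.79, adjusted p = 0.000101). Of 10 models of peroxide and superoxide removal, 4 rose and 3 fell after blue light, against 39.9% and 36.2% of all models, and 2 rose and 5 fell after red light, against 33.7% and 29.5%. With TPM these were 5 and 2, and 5 and 3. Ascorbate peroxidase 585988 had the largest rise after both pulses (0.83 and 0.70, adjusted p = 7.06e-05 and 0.000362), superoxide dismutase 605600 the largest fall after blue light (−1.11, adjusted p = 1.18e-05), and ascorbate peroxidase 451462 (overlapping) the largest after red light (−0.75, adjusted p = 0.000117).

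Over the 5 lists, without the pair, 37 of 118 tested models rose after blue light (31.4%) and 50 fell (42.4%), against 39.9% and 36.2% of all models. After red light 28 rose (23.7%) and 49 fell (41.5%), against 33.7% and 29.5%. With TPM the lists gave 55 rises and 37 falls after blue and 57 and 28 after red light. Calls over all models shifted the same way, to 4551 rises and 2475 falls after blue and 4978 and 1463 after red light. The TPM fit kept models by their mean TPM, so its set of all models is not the same. The median of all models moved from 0.045 to 0.27 and from 0.041 to 0.36. The medians over the lists lay below these, at −0.12 and −0.081 with FPKM and 0.13 and 0.24 with TPM. The highest log2 change among the 118 models was 3.44 after blue light, for model 588610, which passed the filter only through blue. After red light it was 1.25, for the glutaredoxin 581154.

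**Figure D5:**
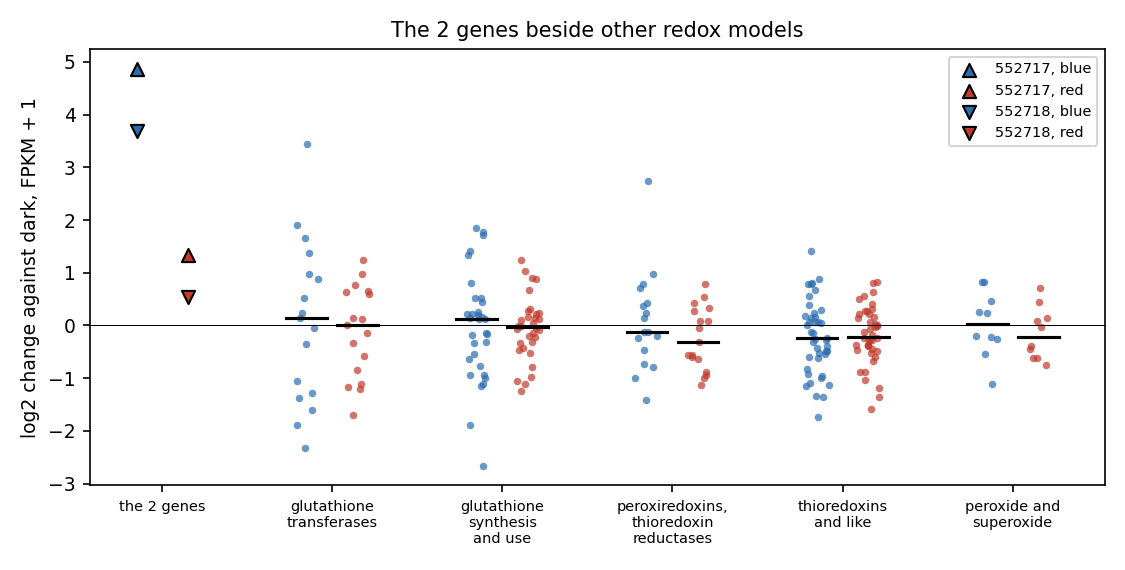
Log2 change against dark on the FPKM + 1 scale after blue and red light for the GST-domain gene and the thioredoxin-fold gene (triangles) and for the tested models of the 5 redox lists (points; black bars are list medians). On this scale both genes stand above all points of the lists after blue light, where the highest list value is 3.44, for model 588610, which is above both genes with a pseudocount of 0.1 (6.63). With a pseudocount of 5 the peroxiredoxin 579988, at 2.58, is level with the thioredoxin-fold gene, at 2.57.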

How the data were processed

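The deposited table holds 1 row per gene model of Nanoce1779_2. The submitters' processing notes name TopHat, FastQC, Cuffdiff, Cuffnorm and Cufflinks but give neither their order nor a version. For filters, strand setting and any scaling between libraries by Cuffnorm, the settings were not given in the sources used here. The authors deposited FPKM and TPM for each library, as the column names state. The authors also deposited log2 changes, p-values and q-values of each pulse against dark, per the file headers; the log2 changes of the pair are printed, and the p-values are not used.

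The 9087 models whose mean over the 6 libraries reached 1 FPKM were fitted on log2(FPKM + 1) with limma 3.58.1 in R 4.3.3 (all 6 libraries, 3 residual degrees of freedom, variance trend, two-sided, Benjamini-Hochberg threshold 0.05); the procedure was tested on simulated data. Both genes passed this filter on low values and were above 1 FPKM in every library. Relative depth was taken from the commonest ratio between libraries among low models: 1 FPKM stood for 1.0891 (dark replicate 2), 1.6629 and 1.1958 (blue) and 1.6901 and 1.3283 (red) times the fragments of dark replicate 1. Fragments are the smallest whole numbers that fit all 6 values within 0.02 fragments or a relative 1e-05; 4765 of 5654 tested models without overlap (84.3%) gave them, with up to 2000 tried in the lowest library. Total fragments per library were not derived, and no count test was run. Named genes are the pair, the flanking models, the 5 models most like each gene and, per redox list, the largest called changes in each direction; the rule takes up to 3 after blue light, of which the text prints 3 for glutathione transferases and the largest for the other lists, and 1 after red light. The members, lists and tests were chosen with earlier results of these data known.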

Additional observations from a re-analysis of the deposited data

How the results depend on the processing

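The log2 change of the pair mostly moved with the scale more than with the libraries. For blue against red of the GST-domain gene the ranges were nearly equal in width, at 3.29 to 3.59 over scales and 3.38 to 3.66 with libraries left out. All changes of the pair kept their sign, which is no support, since the pair was chosen by these values and no groups overlapped. For the GST-domain gene blue against dark was 5.16 with TPM, 5.03 and 4.30 with pseudocounts of 0.1 and 5, and 4.60 with median centring; red against dark was 1.71 with TPM, 1.02 with a pseudocount of 5, 1.16 with quantile normalization and 1.18 with median centring; blue against red was 3.29 with a pseudocount of 5. For the thioredoxin-fold gene blue against dark was 4.05 with TPM, 4.20 and 2.57 with pseudocounts of 0.1 and 5, and 3.42 with median centring. Its red against dark was 0.86 with TPM, 0.73 and 0.25 with pseudocounts of 0.1 and 5, and 0.37 with median centring, and its blue against red was 3.47 and 2.32 with those pseudocounts. Leaving out 1 library at a time gave 4.74 to 4.99, 1.20 to 1.48 and 3.38 to 3.66 for the GST-domain gene and 3.45 to 3.92, 0.44 to 0.63 and 2.92 to 3.38 for the thioredoxin-fold gene (blue against dark, red against dark, blue against red). With TPM 4978 models rose and 1463 fell after red light, against 3066 and 2684 with FPKM, and the redox lists gave 57 rises and 28 falls. The filter on low values used the unit of each fit, so the sets of tested models differ. Of the 10 flanking models, 7 were called after red light with TPM and 2 to 5 with 1 library left out, and 2 differed between the pulses without a filter on low values. Flanking model 581930 turned to −0.00618 after blue light with median centring and to 0.295 after red light with TPM, and thioredoxin 584048 to 0.229 after red light with TPM. Divergent pairs with both models falling after blue light numbered 247 with TPM and 590 with median centring, against 387 in the main fit. Those with both rising numbered 723 with TPM and 291 with median centring, against 484. The cause of these shifts was not tested.

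With the stated replicate number as a block, 3689 models rose and 3350 fell in blue against dark, 3151 and 2746 in red against dark, and 2603 and 2255 were higher and lower in blue against red. The redox lists then gave 38 rises and 50 falls after blue and 30 and 48 after red light, and 6 flanking models each were called after blue and red light. Deviations of same-numbered libraries correlated at 0.0915 between dark and blue, −0.0818 between dark and red and 0.34 between blue and red. The numbers are the stated replicate numbers; red replicate 1 ends in 2 in its title, where dark and blue replicate 1 end in 1, and the labels name no shared culture or day, so the numbers were not taken as pairs. Depth limits the dark level of the thioredoxin-fold gene, at 33 and 35 fragments.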
